A study of Caenorhabditis elegans with 16 samples.

Results

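The members described here are the mature miRNAs of *C. elegans* that are named miR-34, miR-238, miR-239a, miR-239b and miR-246, with both arms of each hairpin. They were chosen by a rule on names, with earlier results of these data known. The rule gave 10 of the 434 mature miRNAs listed in the count tables, from 5 precursors. The libraries came from vIPR, in which young adult worms are crosslinked with UV light, a transcript is pulled down with biotinylated DNA probes, and the small RNA bound with it is sequenced. All 16 libraries are such pulldown elutions from pooled whole worms, so a member's reads stand for its recovery with a transcript and not for its level in the animal. The captured mRNA itself and tissue markers are not measured in small RNA libraries.

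The libraries made up 8 groups. As the no-target control served wild type strain N2 with probes for *gfp*, a sequence that N2 does not carry (n = 3). Endogenous *lin-41*, *alg-1* and *gld-1* were each pulled down from N2 with probes for the transcript (n = 2 each). 2 further groups used the same *gld-1* probes in CRISPR-edited N2 worms. In the seed destruction strain bases of the miR-84 site were changed where the seed pairs, and in the changed specificity strain bases outside the seed match were changed, which converted the site towards let-7 (n = 2 each). Strain BS1080, with a *gld-1::gfp* transgene, was pulled down with *gfp* probes (n = 2), as was strain DG3913 with *gfp::lin-41*, which had n = 1 and no replicate check. GLD-1 and LIN-41 are RNA-binding proteins of the germline and of development, and ALG-1 is an Argonaute protein that carries miRNAs. How many independent edited lines were used, and whether replicate pulldowns came from separate cultures, is not given in the sources used here, so p-values measure the spread between pulldowns. In whole worms, fewer cells of a type and less RNA per cell cannot be told apart.

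A miRNA is cut from a hairpin precursor as a duplex, of which mostly 1 arm is kept by Argonaute and guides it to partly complementary mRNA, chiefly through the seed near its 5′ end. In *C. elegans*, loss of miR-238 or miR-246 has been tied to a shorter life and poorer stress survival, and loss of miR-239 to a longer life. The miR-34 family is conserved to humans, where p53 induces it, and in worms it has been tied to ageing and to the response to DNA damage and other stress.

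The hairpins lie on 3 chromosomes of WBcel235. *mir-34* is at X:2969752-2969848 on the minus strand, *mir-238* at III:8867328-8867425 on the minus strand and *mir-246* at IV:10940134-10940230 on the plus strand. *mir-239b*, at X:11791302-11791399 on the minus strand, and *mir-239a*, at X:11792445-11792542 on the plus strand, are 1045 nt apart. No other annotated gene overlapped any of the 5 precursors. Reads of the related miR-239a and miR-239b could be split or shared in the counting, so the family is uncertain as to which copy gave a read.

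The shallowest library was control replicate 3, with 12474 miRNA reads, and the deepest *gfp::lin-41*, with 2081849. The other controls held 73899 and 42622. Levels are given as CPM (counts per 1000000 reads) after TMM scaling, which sets libraries to the bulk of their miRNAs. They were tested with edgeR over the 112 miRNAs that reached 10 reads in 2 libraries or more. TMM factors were 4.35 to 5.32 in the controls and as low as 0.155 in changed specificity replicate 1. The 3 miRNAs miR-71-5p, let-7-5p and miR-84-5p together took 7.06% to 12.5% of control reads and 90.2% to 95.7% of changed specificity reads, so the scaling weighs on every comparison with the control.

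The members differed greatly in abundance, and most could not be judged. cel-miR-246-3p had 7164 reads over all libraries, cel-miR-238-3p 3713 and cel-miR-34-5p 1141, and these 3 made up 98.91% of the members' 12151 reads. They ranked 28, 36 and 54 of 434 by total. cel-miR-246-3p and cel-miR-238-3p held at least 10 reads in all 16 libraries, and cel-miR-34-5p in 15. The other members were the opposite arms and both miR-239 hairpins.

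cel-miR-239a-3p had 83 reads. It passed the filter, with at least 10 reads in 3 libraries: 11 in *gfp::lin-41*, 10 in *gld-1* replicate 1 and 13 in changed specificity replicate 2. The controls held 0, 4 and 1 reads, and changed specificity replicate 1 held 0. In the fit of all 16 libraries it passed the threshold in no comparison (edgeR adjusted p = 0.729 for any difference among the 7 groups with replicates). Fitted on only the compared groups, it was called lower in *gld-1::gfp* than in *gld-1* (-2.47, edgeR adjusted p = 0.0482), from 6 and 2 reads against 10 and 9, where the fit of all libraries gave -2.35 (edgeR adjusted p = 0.292). At these counts it could not be judged.

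6 of the 10 members failed the filter. cel-miR-246-5p had 29 reads in 10 libraries with at most 7 in any, cel-miR-34-3p 13 reads in 7 libraries with at most 5, and cel-miR-239a-5p 8 reads, as 2 reads in each of 4 libraries. Those 4 were both *alg-1* libraries, *gld-1::gfp* replicate 1 and seed destruction replicate 2. cel-miR-238-5p, cel-miR-239b-5p and cel-miR-239b-3p had 0 of 9056384 reads, which allows a share of up to 3.31e-05% over all libraries and of up to 0.0240% in the shallowest. These limits cover counting error only. The 3p arm of mir-246 and of mir-238 and the 5p arm of mir-34 therefore carried nearly all reads of their hairpins, and every comparison below rests on 4 of the 10 members.

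cel-miR-246-3p was the member that differed most between pulldowns. After TMM scaling its mean level was highest with *lin-41*, lower with every form of *gld-1*, then the no-target control, and lowest with *alg-1*, though the step from control to *alg-1* was not called. By plain share of reads the order was another, given further on. The controls held 34, 36 and 33 reads, or 106, 176 and 498 TMM-scaled CPM (mean 260 ± 209, SD, n = 3). In *lin-41* it had 1550 and 647 reads, or 5726 and 6309 CPM (6017 ± 412, SD, n = 2). Both *lin-41* libraries were the highest of the 16, and *gfp::lin-41* came next, with 2045 reads or 2933 CPM.

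The endogenous *gld-1* libraries held 1097 and 932 CPM of cel-miR-246-3p (1014 ± 117, SD, n = 2). *gld-1::gfp* held 932 and 1447 (1189 ± 364), seed destruction 1283 and 677 (980 ± 428), and changed specificity 1131 and 625 (878 ± 357, each SD, n = 2). These 4 groups overlapped each other and lay wholly above the controls. In *alg-1* the values were 90.7 and 98.5 CPM (94.6 ± 5.51, SD, n = 2), from 25 and 16 reads, both under the lowest control.

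**Figure D1:**
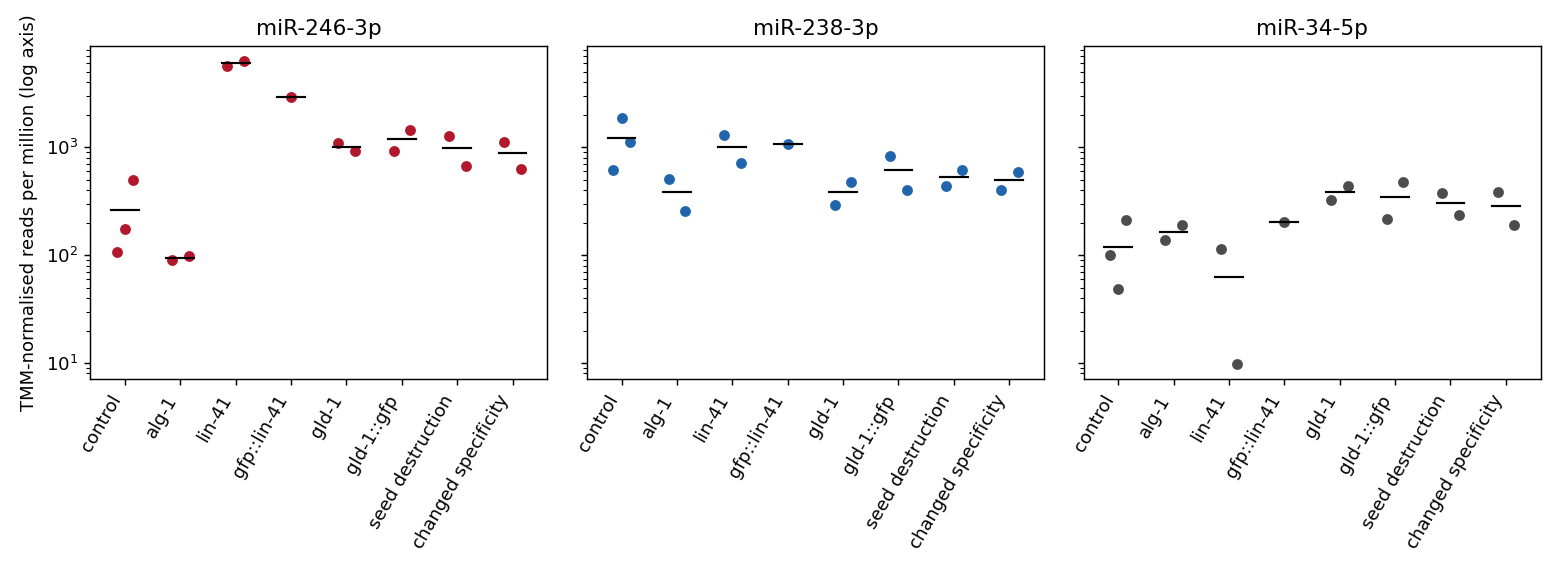
TMM-scaled CPM (log axis) of miR-246-3p, miR-238-3p and miR-34-5p in each of the 16 libraries, by group. Points are libraries and bars are group means. For miR-246-3p the *lin-41* libraries (5726 and 6309) are the highest and the *alg-1* libraries (90.7 and 98.5) the lowest, while miR-238-3p and miR-34-5p show overlapping groups in most cases.

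Against the control, cel-miR-246-3p rose in *lin-41* by a log2 fold change of 4.60 (SE 0.63, 24.2-fold, 95% interval 9.9 to 59.2, edgeR adjusted p = 2.58e-06). It was the 1 member of 4 called in that comparison, where 17.9% of the 112 tested miRNAs were called. The median log2 fold change was 0.27 over the 4 members and -0.05 over all miRNAs tested. The median over the members leans on cel-miR-239a-3p (0.81), which could not be judged. Beside cel-miR-246-3p, cel-miR-238-3p was at -0.26 and cel-miR-34-5p at -0.73. Libraries were also grouped into pulldown series by prefixes in their names, whose meaning is not stated. In the series that held a library of both groups the difference was 4.97.

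In *gld-1* the log2 fold change of cel-miR-246-3p against control was 2.03 (SE 0.59, 4.08-fold, adjusted p = 0.0136 by edgeR), and in *gld-1::gfp* 2.26 (SE 0.59, 4.78-fold, adjusted p = 0.00916 by edgeR). Again 1 of 4 members was called in each, beside 22.3% of all tested miRNAs for the endogenous transcript and 12.5% for the tagged one. The medians over the members were 1.85 and 0.60, and over all miRNAs 0.20 and -0.30. Those over the members include cel-miR-239a-3p (1.94 and -0.42), which could not be judged. cel-miR-34-5p was at 1.75 and 1.61, and cel-miR-238-3p at -1.64 and -0.97. Within the series that shared a control the endogenous transcript differed by 0.89 and the tagged one by 3.06 and 1.53, all in 1 direction. The *gld-1* call was lost without *gld-1* replicate 1 (log2 fold change 1.91, edgeR adjusted p = 0.0666), and the *gld-1::gfp* call without *gld-1::gfp* replicate 2 (log2 fold change 1.91, edgeR adjusted p = 0.109).

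The edited strains gave similar sizes. cel-miR-246-3p was higher than control by 1.98 in seed destruction (SE 0.59, 3.94-fold, edgeR adjusted p = 0.0166) and by 1.82 in changed specificity (SE 0.59, 3.53-fold, edgeR adjusted p = 0.0250). It was the 1 member of 4 called, where 17.9% and 21.4% of all tested miRNAs were called. No edited library shared a pulldown series with a control, so there is no within-series value. The other groups link the series, and with the series in the model the values were 2.05 in seed destruction and 1.90 in changed specificity. Replicate 2 of both edited strains had no prefix and was fitted as a series of its own. Against control these values thus rest on replicate 1 of the edited strains. Both calls of the fit by group were lost when single libraries were left out. Without control replicates 1 or 2 the log2 fold change was 1.59 and 1.78 for seed destruction (edgeR adjusted p = 0.0513 and 0.0503), and 1.43 and 1.62 for changed specificity (edgeR adjusted p = 0.0703 and 0.0781). Without seed destruction replicate 1 the log2 fold change was 1.45 (edgeR adjusted p = 0.278), and without changed specificity replicate 1 it was 1.48 (edgeR adjusted p = 0.325). Without changed specificity replicate 2 the value was 2.01, no smaller than with it, and the call was lost as well (edgeR adjusted p = 0.0944).

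In *alg-1* no member was called against the control by edgeR, where 21.4% of all tested miRNAs were called. 2 of the 4 members had an unadjusted p under 0.05, and DESeq2 called 1. The share of all tested miRNAs under either criterion is not given, so these counts are not a result about the members. cel-miR-246-3p had a log2 fold change of -1.39 (SE 0.64, edgeR adjusted p = 0.137), with both *alg-1* libraries under all controls, and -0.91 and -2.27 within the pulldown series that held both groups. It passed the threshold without control replicate 1 (-1.78, edgeR adjusted p = 0.0292) and with the pulldown series in the model (-1.49, edgeR adjusted p = 0.0148). Over all 7 replicated groups at once, cel-miR-246-3p was the 1 member called (edgeR adjusted p = 5.00e-07), beside 37.5% of all tested miRNAs.

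**Figure D2:**
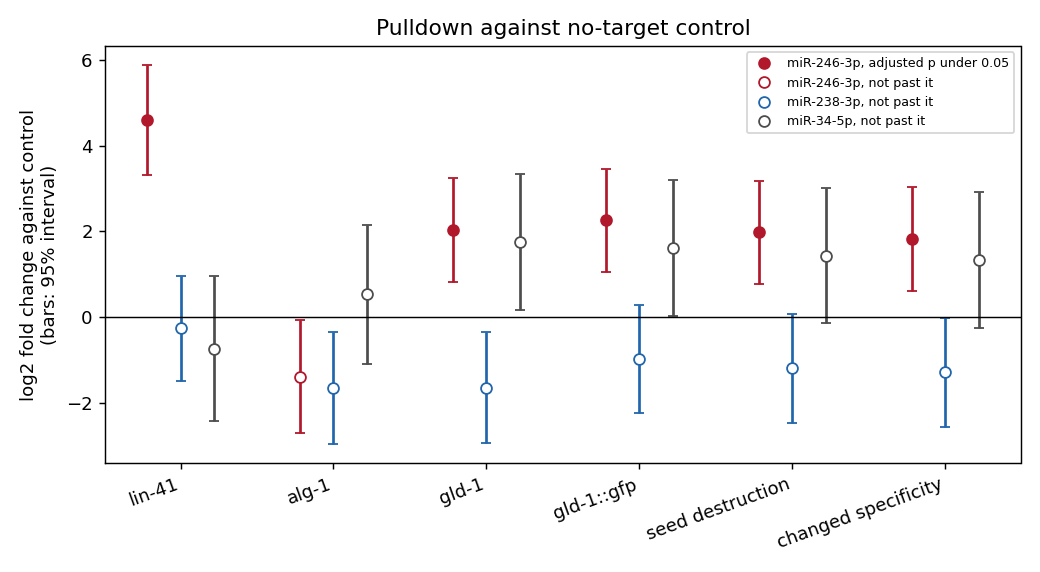
Log2 fold change of miR-246-3p, miR-238-3p and miR-34-5p in each replicated pulldown against the no-target control (edgeR), with 95% intervals as bars. Filled points passed an adjusted p of 0.05. Only miR-246-3p has filled points, 4.60 for *lin-41* and 1.82 to 2.26 for the *gld-1* groups, and for *alg-1* it has an open point at -1.39.

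The changed bases in *gld-1* left the recovery of the members without a detected difference. Against unedited *gld-1*, edgeR called 0 of 4 members with either edit or with the *gfp* tag, 0 had an unadjusted p under 0.05, and DESeq2 called 0. Of all tested miRNAs edgeR called 1.79%, 2.68% and 11.6%. The shares by unadjusted p and by DESeq2 are not given. The difference of cel-miR-246-3p was -0.05 in seed destruction (95% interval -1.35 to 1.25, edgeR adjusted p = 0.997), -0.21 in changed specificity (-1.51 to 1.09, edgeR adjusted p = 0.916) and 0.23 in *gld-1::gfp* (-1.07 to 1.53, edgeR adjusted p = 0.914). As folds, the 3 intervals together run from 0.351 to 2.88, so differences of such sizes are not excluded. In the pulldown series shared by the edited and unedited libraries the differences were 0.22 and 0.04.

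Direct comparisons of the endogenous transcripts were chosen after seeing the data. cel-miR-246-3p was higher in *lin-41* than in *gld-1* by 2.57 (SE 0.67, 5.93-fold, edgeR adjusted p = 0.00657) and than in *alg-1* by 5.99 (SE 0.79, 63.5-fold, edgeR adjusted p = 4.20e-06). It was lower in *alg-1* than in *gld-1* (log2 fold change -3.42, SE 0.71, edgeR adjusted p = 5.97e-04). In each it was the 1 member called, beside 15.2%, 17% and 17.9% of all tested miRNAs. Within shared pulldown series the differences were 2.52, 5.88 and -3.16. The *lin-41* and *gld-1* comparison lost its call without either *gld-1* library, with edgeR adjusted p of 0.0506 and 0.0907.

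The tagged *lin-41* transcript, with 1 library, gave no test. Its log2 level of cel-miR-246-3p was 3.75 above the control mean, where the control SD was 1.11, and 1.03 below the *lin-41* mean (difference -1.03). cel-miR-246-3p made up 0.0982% of its reads (95% Wilson interval 0.0941 to 0.103).

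The comparisons of cel-miR-246-3p with the control depended on the scaling, as the plot of scalings shows. With raw library totals the *lin-41* difference was 1.10 (edgeR adjusted p = 0.174), those of *gld-1* and *gld-1::gfp* turned to -0.34 and -1.31, and that of changed specificity turned to -2.68 and was called lower (edgeR adjusted p = 0.00507). The median over all 112 miRNAs then shifted to -4.39 in changed specificity, -3.62 in *gld-1::gfp*, -3.62 in *lin-41* and -2.14 in *gld-1*. Taken from that median, cel-miR-246-3p was 1.71 higher in changed specificity, 2.31 in *gld-1::gfp*, 4.72 in *lin-41* and 1.80 in *gld-1*, and under TMM 2.03, 2.56, 4.65 and 1.83. As a plain share of reads it was highest in seed destruction, at 0.282% ± 0.0977, and in *lin-41*, at 0.271% ± 0.176 (SD, n = 2 each). The controls, at 0.132% ± 0.117 (SD, n = 3), lay above *gld-1* at 0.1002% ± 0.0558, *gld-1::gfp* at 0.0510% ± 0.00341, changed specificity at 0.0198% ± 0.00317 and *alg-1* at 0.0141% ± 0.00204 (SD, n = 2 each). A scaling shifts all miRNAs of a library nearly alike, so taking values from the median largely cancels it. The same direction relative to the median under all 5 scalings was therefore built in and is no further support. Against control, the direction as a share of the library was not always that relative to the median miRNA.

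**Figure D3:**
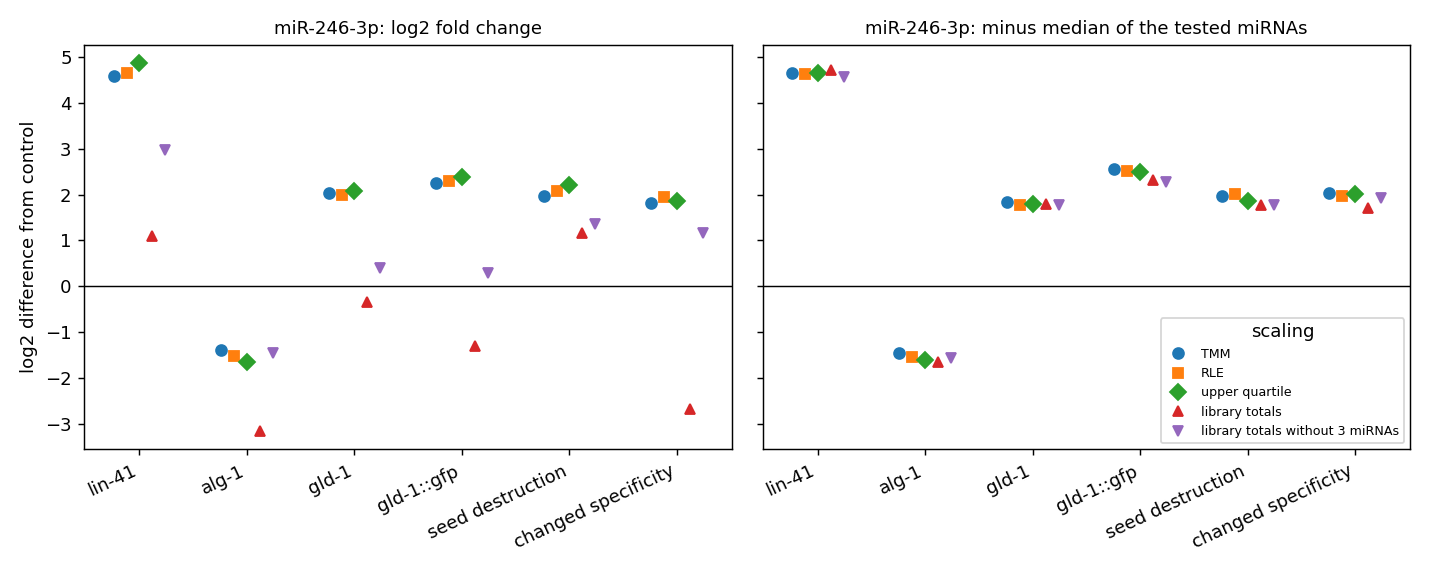
Log2 difference of miR-246-3p from control in 6 pulldowns under 5 scalings (left), and the same after subtracting the median of the 112 tested miRNAs (right). Symbols are scalings. On the left the raw library totals lie lowest, from 1.16 in seed destruction to -3.16 in *alg-1*. On the right the scalings lie close together, near 4.65 for *lin-41*, as subtracting the median largely cancels a scaling.

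cel-miR-238-3p was the most even of the 3 abundant members in TMM-scaled level, though not in share of reads, and had its highest level in a no-target control library. The controls held 198, 385 and 75 reads, or 617, 1886 and 1132 CPM (1212 ± 638, SD, n = 3). In *lin-41* it was at 1300 and 712 CPM, and in *gfp::lin-41* at 1080, both inside the range of the controls. In *gld-1* it was at 295 and 481, in *alg-1* at 508 and 259, and in changed specificity at 400 and 588, all below every control. *gld-1::gfp*, at 825 and 403, and seed destruction, at 438 and 618, overlapped the controls.

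Each log2 fold change of cel-miR-238-3p against control was below 0, and none passed the threshold in the fit of all libraries by group. The values were -1.65 in *alg-1* (SE 0.63, edgeR adjusted p = 0.0674), -1.64 in *gld-1* (SE 0.63, edgeR adjusted p = 0.0646), -1.29 in changed specificity, -1.20 in seed destruction, -0.97 in *gld-1::gfp* and -0.26 in *lin-41* (edgeR adjusted p from 0.156 to 0.810). The difference of *lin-41* has a 95% interval of -1.50 to 0.97. Against *gld-1* the edited strains and *gld-1::gfp* differed by 0.44, 0.35 and 0.67 (edgeR adjusted p from 0.639 to 0.997). The highest share of reads was 146 times the lowest for cel-miR-238-3p and 31.2 times for cel-miR-246-3p. cel-miR-238-3p took 0.268%, 0.903% and 0.601% of the controls and at most 0.195% of any other library. In *alg-1* it was called lower under 7 of 17 alternatives, among them the series in the model (-1.78, edgeR adjusted p = 0.00163), DESeq2 (-1.74, adjusted p = 0.0192) and leaving out control replicate 1 (-1.97, edgeR adjusted p = 0.0181). In *gld-1* it was called lower under 4 of 17, among them leaving out control replicate 1 (-1.96, edgeR adjusted p = 0.0187). With raw library totals it was called lower in 5 of the 6 pulldowns, where the median of all tested miRNAs fell as well. That median was -3.62 in *lin-41* and in *gld-1::gfp*, -4.39 in changed specificity, -2.14 in *gld-1* and -1.51 in *alg-1*. Taken from that median, cel-miR-238-3p was at -0.30 in *lin-41*, -0.72 in *gld-1::gfp* and -1.07 in changed specificity. In *alg-1* and *gld-1* it was at -1.78 and -1.96.

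cel-miR-34-5p, the abundant arm of mir-34, had another order of groups. The controls held 32, 10 and 14 reads, or 99.7, 49.0 and 211 CPM (120 ± 83.1, SD, n = 3). Its highest levels were in the *gld-1* groups, with 218 and 479 in *gld-1::gfp*, 325 and 439 in the endogenous *gld-1* libraries, 384 and 192 in changed specificity and 376 and 237.9 in seed destruction. Apart from the 192, all of these lay above the controls. *alg-1*, at 138 and 191, and *gfp::lin-41*, at 204, lay within the range of the controls.

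In *lin-41* the libraries disagreed, with 31 reads (115 CPM) in replicate 1 and 1 read (9.75 CPM) in replicate 2. Replicate 2 held 163422 reads in all, and its share of 6.12e-04% has a 95% Wilson interval of 1.08e-04% to 0.00347%.

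None of the changes of cel-miR-34-5p against control passed the threshold in the fit of all libraries by group under TMM scaling. The log2 fold change was 1.75 for endogenous *gld-1* (SE 0.77, 3.37-fold, edgeR adjusted p = 0.112), 1.61 in *gld-1::gfp* (edgeR adjusted p = 0.155), 1.44 in seed destruction (edgeR adjusted p = 0.214), 1.34 in changed specificity (edgeR adjusted p = 0.220), 0.53 in *alg-1* (edgeR adjusted p = 0.696) and -0.73 in *lin-41* (edgeR adjusted p = 0.591). With the series in the model cel-miR-34-5p was called higher for endogenous *gld-1*, by 2.13 (edgeR adjusted p = 0.0178), and in *gld-1::gfp*, by 1.51 (edgeR adjusted p = 0.0324). The values were 2.86 in seed destruction and 2.72 in changed specificity. Those 2 rest on replicate 1 of the edited strains, as their replicate 2 was fitted as a series of its own. Raw library totals called cel-miR-34-5p lower in *lin-41* (-4.78, edgeR adjusted p = 6.34e-04) and in changed specificity (-3.14, edgeR adjusted p = 0.00471). Taken from the median of the tested miRNAs, these were -1.16 and 1.25. Totals that leave out miR-71-5p, let-7-5p and miR-84-5p called it lower in *lin-41* (-2.41, edgeR adjusted p = 0.0325). Under TMM scaling the *lin-41* value was 0.02 without *lin-41* replicate 2 and -3.24 without *lin-41* replicate 1. Against *gld-1*, *lin-41* was at -2.49 (SE 0.89, edgeR adjusted p = 0.0562), and at -1.74 without *lin-41* replicate 2 and -4.78 without *lin-41* replicate 1 (edgeR adjusted p = 0.368 and 0.0349). The edited strains and *gld-1::gfp* differed from *gld-1* by -0.32, -0.41 and -0.14, with intervals from -2.10 to 1.54 in all.

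Ratios between members within a library do not depend on its total or its scaling. The log2 ratio of cel-miR-246-3p to cel-miR-238-3p, from reads plus 1, was -2.51, -3.38 and -1.16 in the controls and -2.44 and -1.34 in *alg-1*. It was above 0 in all 11 other libraries, at 0.18 and 1.83 in *gld-1::gfp*, 1.88 and 0.95 in the endogenous *gld-1* libraries, 1.49 and 0.09 in changed specificity, and 1.54 and 0.13 in seed destruction. *gfp::lin-41* was at 1.44, and *lin-41*, at 2.14 and 3.13, was highest. The *alg-1* and control libraries overlapped, and both lay below all others.

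The log2 ratio of cel-miR-34-5p to cel-miR-246-3p set *lin-41* apart at the other end. It was -5.60 and -8.34 in *lin-41* and -3.84 in *gfp::lin-41*, against -0.08, -1.75 and -1.18 in the controls. The *gld-1*, *gld-1::gfp*, seed destruction and changed specificity libraries lay between -2.09 and -1.08 and overlapped the controls. In *alg-1* the ratio was 0.58 and 0.91, the only libraries with more reads of cel-miR-34-5p than of cel-miR-246-3p.

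**Figure D4:**
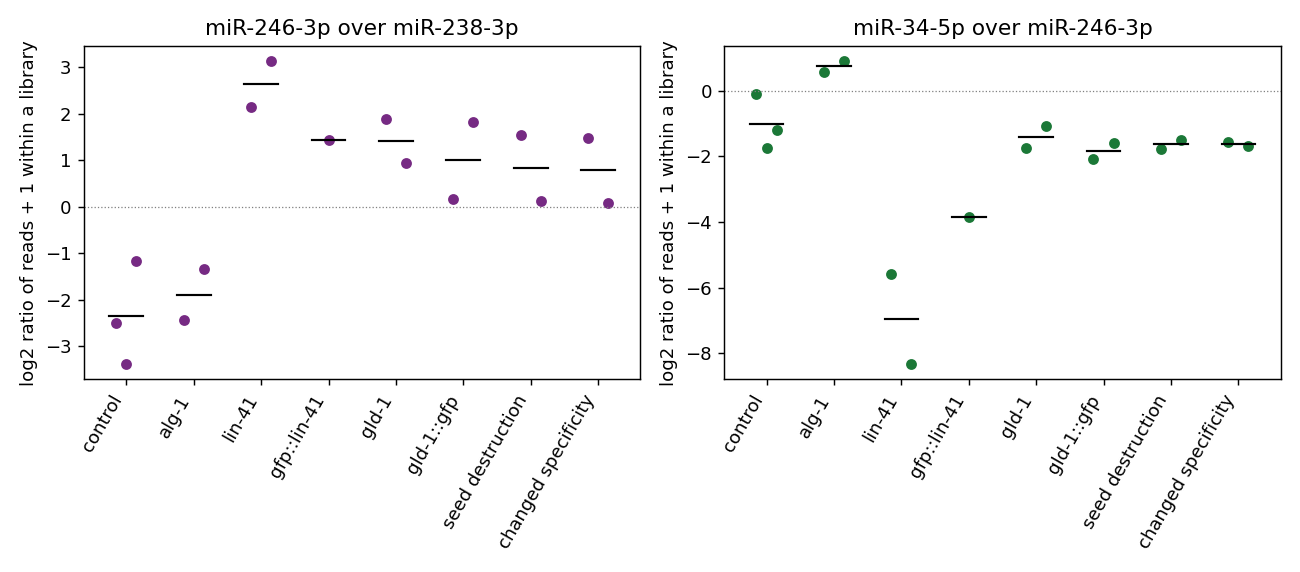
Log2 ratios between members within each library (reads plus 1), by group, with points for libraries and bars for group means. Left, miR-246-3p over miR-238-3p is below 0 in the control and *alg-1* libraries and above 0 elsewhere. Right, miR-34-5p over miR-246-3p is lowest in *lin-41* (-5.60 and -8.34) and above 0 only in *alg-1* (0.58 and 0.91).

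The members did not vary together over the 16 libraries. Pearson's r of the log2 levels was -0.06 between cel-miR-246-3p and cel-miR-34-5p, 0.18 between cel-miR-246-3p and cel-miR-238-3p and -0.48 between cel-miR-34-5p and cel-miR-238-3p. The SD of the log2 level over the libraries was 1.88 for cel-miR-246-3p, 1.25 for cel-miR-34-5p and 0.78 for cel-miR-238-3p, which ranked 19, 45 and 86 of 112, with a median of 1.05 over all. The miRNAs most like cel-miR-246-3p were miR-4932 (r = 0.81), miR-49-5p (0.79) and miR-72-5p (0.78). For cel-miR-34-5p they were miR-73-3p (0.76), miR-250-5p (0.72) and miR-66-5p (0.68), and for cel-miR-238-3p miR-80-3p, miR-1817 and miR-70-3p (each 0.66). These are descriptions over libraries that share depth, scaling and groups.

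A list of 12 other miRNAs tied to ageing, stress or common expression in adult worms was set beside the members, and all 12 could be tested. The list was chosen with earlier results of these data known, and the paper had reported miR-71 with *alg-1*. Its counts are thus a description and no support. Against the control edgeR called 1 higher in *alg-1* and in *lin-41*, 2 in *gld-1::gfp*, and 4 in each of changed specificity, seed destruction and endogenous *gld-1*. Only miR-229-5p in changed specificity was called lower (-2.09). Of all tested miRNAs, in either direction, 21.4% were called in *alg-1*, 17.9% in *lin-41* and 12.5% in *gld-1::gfp*. The shares were 21.4% in changed specificity, 17.9% in seed destruction and 22.3% in endogenous *gld-1*. miR-71-5p, which promotes longevity in *C. elegans*, was the called miRNA in *lin-41* (log2 fold change 1.72) and in *alg-1* (5.72), and it was also called in changed specificity (2.37), seed destruction (2.63), *gld-1::gfp* (1.76) and endogenous *gld-1* (2.79). The others in *gld-1* were miR-65-5p (5.23), miR-66-5p (4.63) and miR-233-3p (3.41). The median over the list was -0.32 in *lin-41*, -0.18 in *alg-1* and -0.77 in *gld-1*. In *lin-41*, cel-miR-246-3p thus had a larger difference than any of the 12, and in *alg-1* the value of miR-71-5p (5.72) and that of cel-miR-246-3p (-1.39) had opposite signs.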

How the data were processed

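Small RNA from 16 vIPR elutions was sequenced with the SMARTer smRNA-Seq kit, which adds a poly(A) tail. Per the labels and the study's methods, the authors demultiplexed with bcl2fastq, trimmed adaptors and tails with cutadapt 1.14, removed *E. coli* reads with Bowtie2 2.3.3.1 and counted miRBase miRNAs with miRDeep2. The genome build of that step is not given in the sources used here. The deposited values are raw read counts per precursor and mature miRNA. A miRNA that ends in A can lose bases or reads to tail trimming.

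Where a mature miRNA had several precursor entries, the largest was used. Counts were tested in edgeR 4.0.16 (R 4.3.3) by the robust quasi-likelihood test with TMM factors, with 1 mean per group over all 16 libraries and Benjamini-Hochberg adjustment at 0.05. miRNAs that reached 10 reads in 2 libraries or more entered the fit (112 of 434, holding at least 99.78% of each library). The common biological coefficient of variation was 0.5325. The script was tested on simulated data. Replicates differed by 98.7 to 511 chi-square units per degree of freedom and were counted as separate libraries. Intervals cover counting error only where a share is given. Pulldown series were read from prefixes in the library names, and what the prefixes stand for is not stated. Replicate 2 of both edited strains had no prefix and was fitted as a series of its own. Hairpin positions came from the Ensembl release 115 annotation of WBcel235, matched by name.

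Members are named always, with the 3 miRNAs most alike by Pearson's r and a list of 12 others. The members and lists were chosen with earlier results of these data known. Other scalings, filters, DESeq2 1.42.0, the series and the replicate number as factors, and leaving out each library were tried. Mature sequences were not used here, so seed matches and the effect of trimming were not examined.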

Additional observations from a re-analysis of the deposited data

Results flagged for a closer look

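Recovery of cel-miR-246-3p differed between the endogenous transcripts by a test of the difference itself. It was higher with *lin-41* than with *gld-1* by 2.57 on the log2 scale (edgeR adjusted p = 0.00657) and higher with *lin-41* than with *alg-1* by 5.99 (edgeR adjusted p = 4.20e-06). Between *alg-1* and *gld-1* the log2 difference was -3.42 (edgeR adjusted p = 5.97e-04). In each comparison both libraries of 1 transcript lay beyond both of the other. This also held for the uncalled cel-miR-34-5p in each, and for cel-miR-238-3p in both *lin-41* comparisons. It held for cel-miR-239a-3p in *lin-41* against *gld-1* too. It therefore does not set cel-miR-246-3p apart, and the share of all tested miRNAs without overlap is not given. Over the alternatives the differences of cel-miR-246-3p ranged from 1.44 to 3.08, from 4.26 to 6.62 and from -3.74 to -1.87. Their cause was not tested.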

How the results depend on the processing

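The rise of cel-miR-246-3p in *lin-41* against control kept its call under 16 of 17 alternatives (1.10 to 5.42) and its difference from *alg-1* under 16 of 16. The difference between *lin-41* and *gld-1* kept its call under 13 of 16, and was 1.44 with raw library totals (edgeR adjusted p = 0.224). That between *alg-1* and *gld-1* kept it under 15 of 16, and was -1.87 with totals without the 3 miRNAs (edgeR adjusted p = 0.0573). The calls against control were kept in 13 of 17 for *gld-1* and for *gld-1::gfp*, 12 for seed destruction and 10 for changed specificity. The depth of the controls and groups of 2 limit what else could be called. The comparisons among endogenous transcripts and their alternatives were chosen after seeing the data. Unless a value shows otherwise, the cause of a change was not tested. The descriptions of trimming and of seed matches were not run.

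The counts below stand without the share of all tested miRNAs called under the same alternative, which is not given. They are thus not a result about the members alone. The number of the 4 members called changed as follows. With raw library totals it was 2 in *alg-1*, 3 in changed specificity, 2 in *gld-1::gfp*, 2 in *lin-41* and 0 in seed destruction against control, 1 in changed specificity against *gld-1*, 2 in *lin-41* against *alg-1* and 3 for any of the 7 groups. With totals that leave out miR-71-5p, let-7-5p and miR-84-5p it was 3 in *lin-41* and 0 in seed destruction against control, 0 in *alg-1* against *gld-1*, 2 in *lin-41* against *alg-1* and 2 for any of the 7 groups. With the pulldown series as a factor it was 2 in *alg-1*, *gld-1::gfp* and *gld-1* against control, 2 in *lin-41* against *alg-1* and against *gld-1*, and 3 for any of the 7 groups. The edited strains against control are left out there, as they rest on replicate 1 of each. With DESeq2 size factors in edgeR it was 1 in *alg-1* and 0 in changed specificity and *gld-1*, and DESeq2 itself gave 1 in *alg-1* and 2 in *lin-41* against *gld-1*. Upper-quartile factors gave 1 in *alg-1*. Summing precursor entries gave 1 in *alg-1* and 2 in *lin-41* against *gld-1*. A filter on a mean of at least 10 reads gave 2 in *gld-1*. With only the compared groups it was 0 in *gld-1::gfp* against control, 1 in *gld-1::gfp* against *gld-1* and 2 in *lin-41* against *alg-1*. The added calls with the series as a factor were of cel-miR-238-3p in *alg-1* and against it in *lin-41* (1.57), beside cel-miR-246-3p in *alg-1*, and of cel-miR-34-5p elsewhere. Those with only the compared groups were of cel-miR-239a-3p in *gld-1::gfp* against *gld-1* (-2.47) and of cel-miR-238-3p in *lin-41* against *alg-1* (1.39). Leaving out 1 library at a time gave 0 to 2 in *alg-1* and *gld-1*, 0 to 1 in changed specificity, *gld-1::gfp* and seed destruction, 0 to 2 in *lin-41* against *gld-1*, and 1 to 2 for any of the 7 groups.

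Signs turned as follows, as log2 differences. Raw library totals gave, against control, -1.31 in *gld-1::gfp*, -0.34 in *gld-1* and -2.68 in changed specificity for cel-miR-246-3p, and -1.95 in *gld-1::gfp*, -0.68 in *gld-1*, -1.22 in *alg-1* and -3.14 in changed specificity for cel-miR-34-5p. Against *gld-1* they gave 1.497 in seed destruction and -0.97 in *gld-1::gfp* for cel-miR-246-3p, 1.35 in seed destruction for cel-miR-34-5p, and -1.36 in changed specificity and -0.25 in *gld-1::gfp* for cel-miR-238-3p. In *lin-41* against *alg-1* cel-miR-238-3p, at 1.39 otherwise, was at -0.63 with raw totals and -0.20 with totals without the 3 miRNAs. Totals without the 3 miRNAs gave, against *gld-1*, 0.76 in changed specificity, -0.11 in *gld-1::gfp* and 0.95 in seed destruction for cel-miR-246-3p, and 0.43 in *alg-1*, 0.66 in changed specificity and 0.78 in seed destruction for cel-miR-34-5p, which was at -0.35 in *gld-1::gfp* against control. The series as a factor gave, against *gld-1*, 0.20 in changed specificity and 0.35 in seed destruction for cel-miR-246-3p, and 0.59 and 0.73 for cel-miR-34-5p, and against control 0.28 in *gld-1::gfp* for cel-miR-239a-3p. cel-miR-246-3p in seed destruction against *gld-1* (-0.05) was at 0.0932 with DESeq2, 0.0931 with its size factors, 0.0676 with the filter on mean reads, 0.20 with only the compared groups, 0.19 with summed precursors (0.11 in changed specificity) and 0.12 with upper-quartile factors. Leaving out 1 library turned only uncalled differences. Against *gld-1*, cel-miR-246-3p ran from -0.58 to 0.34 in seed destruction and from -0.35 to 0.18 in changed specificity, and cel-miR-34-5p from -0.63 to 0.0496 in changed specificity and from -0.58 to 0.32 in *gld-1::gfp*. Against control, cel-miR-34-5p ran from -0.0298 to 1.12 in *alg-1* and from -3.24 to 0.0161 in *lin-41*, cel-miR-238-3p from -0.58 to 0.22 in *lin-41*, and cel-miR-239a-3p from -1.30 to 1.11 in *gld-1::gfp*.

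Replicate numbers did not pair the libraries as a whole, since same-numbered libraries had a mean correlation of -0.03 over 42 pairs (range -0.49 to 0.52, over 0.1 in 12). These correlations are of deviations from the group mean, which mirror each other in a group of 2. Pairs between such groups therefore repeat the same value, so the 42 and the 12 are not counts of independent pairs. The highest, 0.52, was that of seed destruction with changed specificity, 2 groups not compared with each other, whose same-numbered libraries also share a name prefix or lack one. With the replicate number as a block, the rise of cel-miR-246-3p in *lin-41* was 5.41 against control. The block changed the call of 1 member, cel-miR-34-5p in *lin-41* against *gld-1* (-2.65, edgeR adjusted p = 0.0444), which made 2 members called there. The share of all tested miRNAs called with the block is not given. The block turned the uncalled cel-miR-239a-3p in *gld-1::gfp* against control to 0.0390.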
